A study of Mus musculus with 24 samples.

Results

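A set of 10 genes was described, out of 30270 genes in the deposited tables. They were chosen by gene identifier because their RNA separated Vdr-/- mice, which lack the vitamin D receptor, from wild-type mice. The genotype difference therefore selected the genes, and it is given below as a description with no test. RNA sequencing had been performed on bilateral micropunches of the nucleus accumbens (NAc) and the ventral tegmental area (VTA), both regions of the brain's reward system. There were 24 libraries from 12 mouse numbers, 3 libraries in each of 8 groups, and the same mouse numbers appear in both regions. The mice were VDR+/+ (wild-type) or VDR-/-, on a C57BL/6 background by their labels, and had received PBS or morphine (5 mg/kg, intraperitoneal). The Vdr-/- mice came from another laboratory and had been raised on a diet with extra calcium and lactose, so genotype, breeding line and diet cannot be told apart. Age and sex are not in the labels.

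A gene targeted in embryonic stem cells of one mouse strain and bred into another strain stays flanked by DNA of the first strain. Inbred strains and substrains differ in gene copy number, in retrotransposed gene copies and in regulatory sequence, and such differences can set RNA levels in every tissue. A processed pseudogene is a copy of a spliced RNA that was written back into the genome, and its reads can be hard to tell from those of its source gene. The strain of origin of the alleles of these genes was not tested, since the tables hold counts per gene and no sequence variants.

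Between 9328726 and 30184426 reads per library were counted on genes. The values below are normalized counts, that is reads divided by a size factor set within each table. Vdr itself held 0 to 17 reads per library, 0 to 14 in the NAc and 2 to 17 in the VTA, with both genotypes in the same range, so it did not check the genotypes, which were taken from the labels. The 9 markers of medium spiny neurons summed to 2464 to 5001 CPM (reads scaled by the reads on genes of each library) in the NAc and 260.9 to 322 in the VTA. The 9 dopamine neuron markers summed to 57.5 to 98.1 in the NAc and to 199.7 to 2868 in the VTA, where their means were 2520 in wild-type PBS, 1355 in Vdr-/- PBS, 344 in wild-type morphine and 849 in Vdr-/- morphine libraries. Dopamine neuron RNA thus moved with group in the VTA, and its part in the VTA values below was not tested. In bulk tissue, fewer cells of a type and less RNA per cell cannot be told apart. The NAc library of wild-type PBS mouse 2 stood apart: its ratio to the other NAc libraries fell with transcript length (Spearman rho = -0.433 across genes, which are not replicates, against -0.236 to 0.239 in the other libraries).

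Of the 10 genes, 5 were higher and 5 lower in Vdr-/- mice in each of the 4 combinations of region and injection. Tmem181b-ps, Rpl3-ps1, Gm3226, Wdfy1 and Cd59a were higher, whereas Gm15446, Olfr286, Ide, Btaf1 and Aim2 were lower. All 10 passed the filter, a mean of at least 10, in every genotype table. The genotypes did not overlap for 9 genes in the NAc after PBS, 10 in the NAc after morphine, 10 in the VTA after PBS and 9 in the VTA after morphine. Over all genes tested the shares were 16.9%, 13.5%, 20.5% and 14.5%. By limma at an adjusted p under 0.05, the genes called included 5, 9, 10 and 7 of the 10, where the shares of all genes tested were 0.0690%, 0.192%, 0.390% and 0.0624%. Nothing is read from these counts, since the same contrast chose the genes. The median absolute log2 difference of the 10 genes was 1.43, 1.45, 1.46 and 1.28 in that order, and that of all genes tested was 0.12, 0.08, 0.11 and 0.10.

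**Figure D1:**
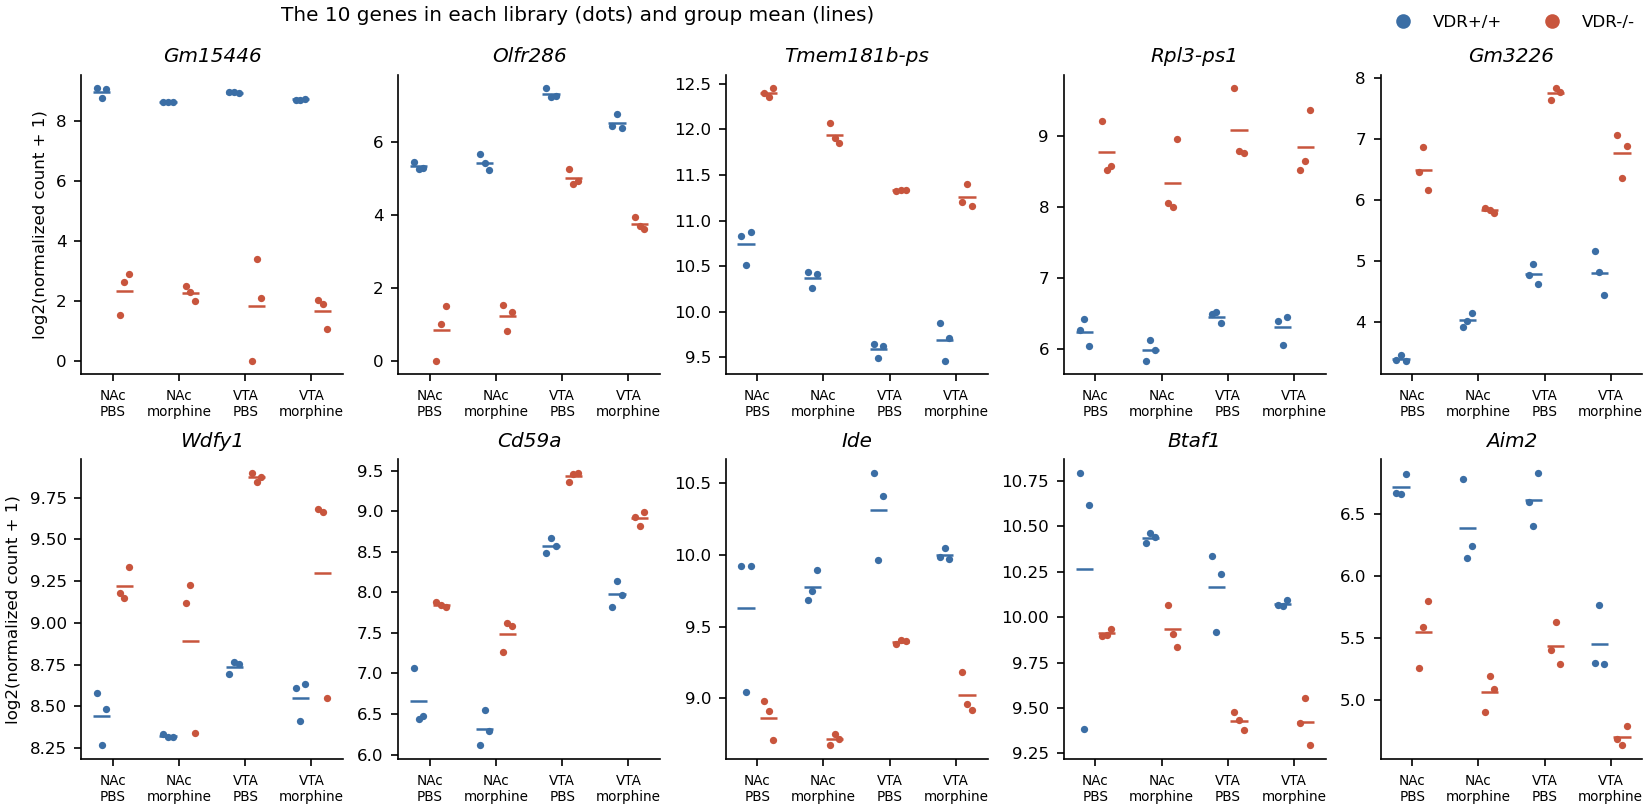
Each panel plots 1 gene, with log2(normalized count + 1) on the vertical axis and the 4 combinations of region and injection on the horizontal axis. Dots are libraries (3 per group), lines are group means, blue is VDR+/+ and red is VDR-/-. The genotypes stay apart in every combination for 8 genes, while 1 red dot of Wdfy1 falls to the wild-type level in both morphine panels and 1 blue dot of Btaf1 falls low in the NAc after PBS.

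Gm15446 (ENSMUSG00000090015.8) had the largest difference of the 10. It is a predicted protein-coding gene on chromosome 5 (GRCm38 chr5:109923400-109943936, plus strand). In the NAc after PBS its values were 551, 437 and 539 in wild-type mice and 1.86, 5.13 and 6.46 in Vdr-/- mice. In the VTA after PBS they were 502, 500.4 and 493 in wild-type mice, and 0, 9.66 and 3.28 in Vdr-/- mice. After morphine the wild-type libraries lay between 397 and 401 in the NAc and between 421 and 429 in the VTA, and no Vdr-/- library exceeded 4.64. No library of one genotype came near the other. The Vdr-/- libraries together held 14, 12, 11 and 7 reads in the 4 combinations (NAc PBS, NAc morphine, VTA PBS, VTA morphine), against 1580, 1259, 1599 and 1310 reads in wild-type libraries. Per scaled library the wild-type level was 116-fold higher in the NAc after PBS (95% exact interval 69.1 to 213, counting error only) and 180-fold higher in the VTA after morphine (87.1 to 449). The other 2 ratios were 101 and 138.

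The annotated gene with the most 50-base words in common with Gm15446 was Zfp932, a zinc finger gene on the same chromosome (chr5:109996521-110010411), which held 1159 of its 3684 words. Zfp932 was at 577 ± 46.7 (SD, n = 3) in wild-type and 508 ± 17.03 in Vdr-/- mice in the NAc after PBS. Its log2 difference lay between -0.20 and 0.01 over the 4 combinations, and none passed the limma test (adjusted p between 0.586 and 0.976). Of the summed values of both genes, Gm15446 held 45.1% to 53.4% in wild-type libraries and at most 2.26% in Vdr-/- libraries.

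Olfr286 (ENSMUSG00000090129.9), an odorant receptor gene by its symbol, was the member nearest to Vdr, 0.296 Mb away on chromosome 15. Its identifier lies at chr15:98206971-98221056 (minus strand) in GENCODE M21, where it carries the symbol Olfr287, and Vdr lies at chr15:97854425-97910630. In the NAc after PBS its values were 42.1, 37.1 and 38.1 in wild-type and 0, 1.03 and 1.85 in Vdr-/- mice. In the VTA after PBS it was expressed more in both genotypes, at 175, 148 and 150.2 in wild-type and 36.7, 27.4 and 29.5 in Vdr-/- mice. The genotypes were apart in both regions, but by different factors. In the NAc the Vdr-/- libraries held 3 reads after PBS and 4 after morphine, for wild-type levels 40.9-fold (interval 13.6 to 201) and 32.7-fold higher (12.5 to 122). In the VTA the wild-type level was 5.09-fold higher after PBS (4.09 to 6.41) and 7.33-fold higher after morphine (5.19 to 10.6). The intervals of the 2 regions did not overlap, and they cover counting error only. Of its 2747 words, 904 were shared with Gm44579 and 715 with Olfr288, and Olfr288 had group means of at most 2.54 where it was listed.

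Rpl3-ps1 (ENSMUSG00000084349.3) is a processed pseudogene on the X chromosome (chrX:13202571-13203780, plus strand) of Rpl3, which encodes a protein of the large ribosomal subunit and lies at chr15:80077791-80091868. The 1210 bases of the pseudogene aligned with the Rpl3 transcript at 1208 identical bases, and 85.7% of aligned windows of 101 bases, the length of 1 read, held no difference. A window around 1 of the 2 differences is shown because it carries the distinction between both genes within 1 read. The first line is chrX:13202575-13202675 (plus strand) and the second chr15:80082482-80082582 (minus strand, within 1 coding exon of Rpl3), both GRCm38 and GENCODE M21, with the differing base in capitals.
Rpl3-ps1: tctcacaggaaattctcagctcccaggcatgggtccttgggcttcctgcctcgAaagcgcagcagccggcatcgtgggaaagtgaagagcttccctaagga
Rpl3: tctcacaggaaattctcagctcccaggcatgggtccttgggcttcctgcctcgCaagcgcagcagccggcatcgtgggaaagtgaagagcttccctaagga

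Rpl3-ps1 was higher in Vdr-/- mice by a log2 difference of 2.53 ± 0.25 (SE) in the NAc after PBS, 2.37 ± 0.32 in the NAc after morphine, 2.63 ± 0.30 in the VTA after PBS and 2.55 ± 0.29 in the VTA after morphine. In the NAc after PBS its values were 75.7, 84.3 and 64.7 in wild-type mice and 593, 366 and 379 in Vdr-/- mice 7, 8 and 9. In the VTA the same mouse numbers were at 816, 443 and 434. After morphine Vdr-/- mice 2.0, 2.1 and 2.2 were at 266, 255 and 498 in the NAc and at 367, 399 and 659 in the VTA. Vdr-/- mouse numbers 7 and 2.2 were thus the highest of their groups in both regions. Rpl3 ran the other way in these libraries: in the NAc it was at 2328 in mouse 7 against 3707 and 3682 in mice 8 and 9, and at 1821 in mouse 2.2 against 2624 and 2505 in mice 2.0 and 2.1. In the VTA Rpl3 was at 3273 in mouse 7 and 2550 in mouse 2.2, also the lowest of their groups.

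The share of Rpl3-ps1 in the sum of both genes fell at 3 separate levels. It lay between 1.41% and 1.90% in all 12 wild-type libraries. In Vdr-/- mice 8, 9, 2.0 and 2.1 it lay between 8.80% and 9.93% in both regions. In Vdr-/- mice 7 and 2.2 it was 20.31% and 21.49% in the NAc and 19.96% and 20.53% in the VTA. No library lay between these levels. Mice 7, 8 and 9 had received PBS and mice 2.0, 2.1 and 2.2 morphine, and the part of injection in these levels was not tested. The levels of single mice were noticed in the data, and no test was made of them. Rpl3 itself was lower in Vdr-/- mice, by 0.54 to 0.68 on the log2 scale, with no overlap of the genotypes in any combination, and passed the limma test in the NAc after morphine only (adjusted p = 0.0334, other combinations 0.123 to 0.461). The sum of both genes was 5052 ± 733 (SD, n = 3) in wild-type and 3685 ± 662 in Vdr-/- mice in the NAc after PBS, and 5891 ± 254 and 4589 ± 443 in the VTA after PBS. A read within the 85.7% of windows with no difference matches both transcripts, though reads were paired and its mate can cover a difference. The authors' counting used the gene count option of STAR and may have left out reads that match both genes. How many were left out is not known. The values of each gene, their sum and the share are therefore uncertain, and the cause of the 3 levels was not tested.

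**Figure D2:**
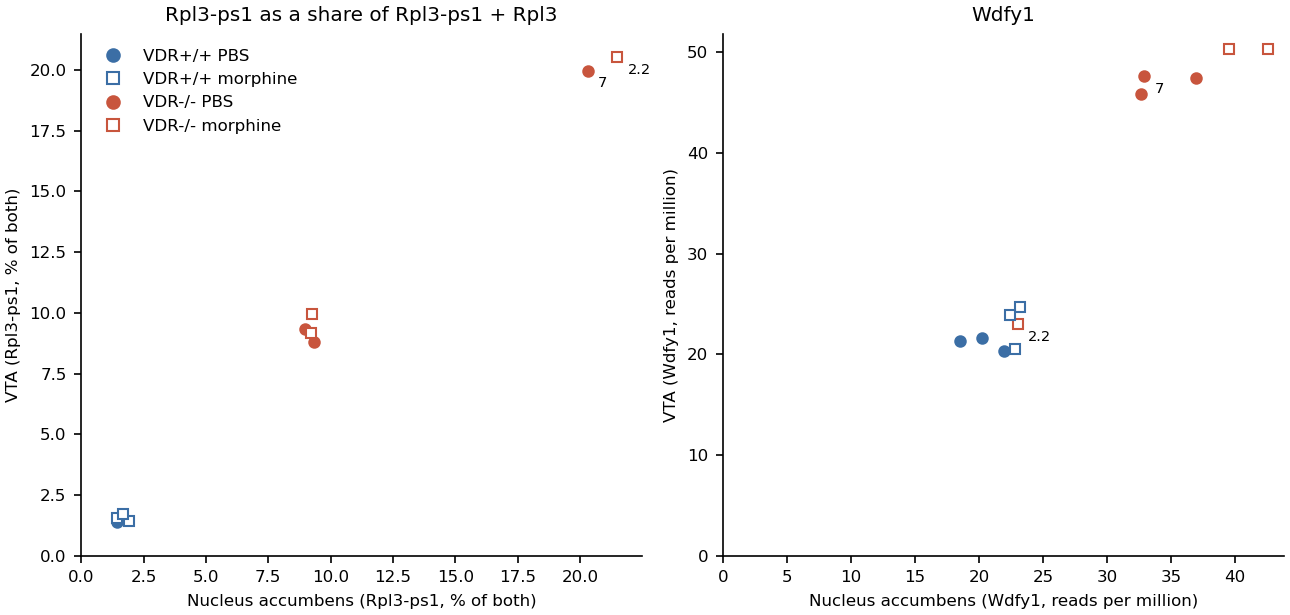
Each point is 1 mouse number, with its NAc library on the horizontal and its VTA library on the vertical axis. The left panel gives Rpl3-ps1 as a percentage of Rpl3-ps1 plus Rpl3, and the right panel Wdfy1 in CPM. Filled circles are PBS, open squares morphine, blue VDR+/+ and red VDR-/-. On the left the points sit at 3 levels with mice 7 and 2.2 at the top, and on the right mouse 2.2 sits among the wild-type mice.

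Gm3226 (ENSMUSG00000114547.1), a processed pseudogene on chromosome 13 (chr13:112593743-112595084, minus strand), shared 802 of its 1293 words with Tuba1b, an alpha-tubulin gene at chr15:98931425-98934565. All of its 1342 bases aligned with Tuba1b and 1331 were identical. Windows of 101 bases held at most 2 differences, and 36.4% held none.

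In the NAc after PBS Gm3226 was at 9.47, 9.997 and 9.34 in wild-type and 87.4, 116 and 71.1 in Vdr-/- mice. In the VTA after PBS it was at 26.4, 30.1 and 23.7 in wild-type and 198, 227 and 219 in Vdr-/- mice. The genotypes were apart in every combination, and the difference was larger after PBS than after morphine in both regions. The log2 difference was 3.10 ± 0.20 (SE from the spread of the 3 mice in each of both groups) and 2.96 ± 0.11 after PBS in the NAc and VTA, and 1.80 ± 0.07 and 1.96 ± 0.30 after morphine. Whether injection changed the genotype difference was not tested.

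Other alpha-tubulin sequences differed between the genotypes too. Among the 12 other annotated genes in the tables that shared words with Gm3226, 9 passed the filter in at least 1 genotype table. Tuba1c (chr15:99029891-99038110), an alpha-tubulin gene, was higher in Vdr-/- mice by 4.69, 6.07, 5.30 and 5.77 on the log2 scale in the 4 combinations. Its means were 14.6 ± 1.04 (SD, n = 3) in wild-type and 400 ± 20.1 in Vdr-/- mice in the NAc after PBS. The processed pseudogenes Gm14150 on chromosome 2 and Gm3756 on chromosome 9 were higher by 4.26 to 4.94 and by 2.97 to 4.55. Tuba1b fell on the opposite side, with log2 differences of -0.32 to -0.54, as did Tuba1a with -0.25 to -0.42. Gm6682, Gm5620, Gm17383 and Gm7172 had differences between -0.26 and 1.80 in the combinations where they passed the filter, and limma called none of these (adjusted p between 0.0602 and 0.988). Reads that match several of these near-identical sequences may have been left out by the authors' counting, which used the gene count option of STAR. The values of each are therefore uncertain.

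**Figure D3:**
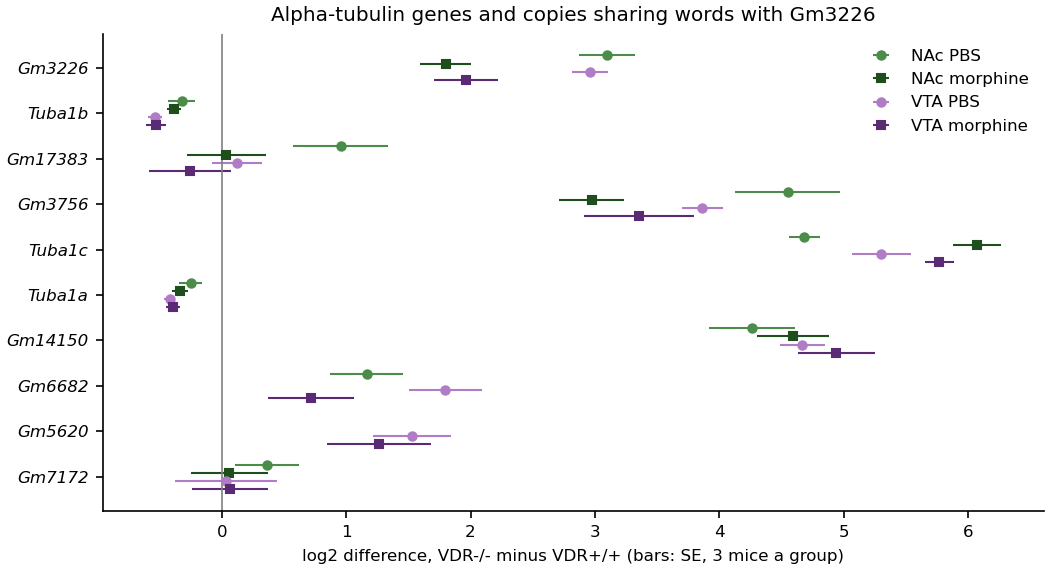
The horizontal axis is the log2 difference, VDR-/- minus VDR+/+, with bars for the limma SE (3 mice a group), which borrows from all genes and so differs from the SE given for Gm3226 above (0.22, 0.20, 0.14 and 0.26 here for NAc PBS, NAc morphine, VTA PBS and VTA morphine), and each row is 1 gene that shared 50-base words with Gm3226, ordered by the number shared. Green marks are NAc and purple marks VTA, circles PBS and squares morphine. Gm3226, Gm3756, Tuba1c and Gm14150 lie between 1.80 and 6.07, and Tuba1b and Tuba1a lie below 0 in all 4 combinations.

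Tmem181b-ps (ENSMUSG00000096780.7), a transcribed unprocessed pseudogene at chr17:6438524-6467022 (minus strand), was higher in Vdr-/- mice. Its values in the NAc after PBS were 1815, 1462 and 1879 in wild-type and 5387, 5259 and 5605 in Vdr-/- mice. In the VTA after PBS they were 800.2, 718 and 788 in wild-type and 2558, 2577 and 2589 in Vdr-/- mice. The genotypes were far apart against a small spread within each. The log2 difference was the steadiest of the 10 genes, at 1.66, 1.57, 1.74 and 1.57, a range of 0.17. Its closest relative Tmem181a (chr17:6256860-6308314), which shared 1878 of its 4234 words, had log2 differences of 0.10 to 0.15, none of which passed the limma test (adjusted p between 0.410 and 0.723). Dynlt1b, a dynein light chain gene next to Tmem181b-ps (chr17:6430112-6436296), was higher in Vdr-/- mice by 1.38 to 1.81 in the 4 combinations with no overlap. Limma did not call it in any of them (adjusted p between 0.0671 and 0.396), and its wild-type means were low, 9.98 to 23.1. It shared 551 of its 722 words with Dynlt1a and as many with Dynlt1c.

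Of the 3 genes of innate immunity, Cd59a and Wdfy1 were higher in Vdr-/- mice and Aim2 was lower. Cd59a (ENSMUSG00000032679.12, chr2:104095801-104115354, plus strand) encodes a membrane protein that stops complement from forming its pore. It was at 134, 85.7 and 87.6 in wild-type and 235, 229 and 225 in Vdr-/- mice in the NAc after PBS, and at 357, 405 and 380 against 656, 701 and 710.0 in the VTA. The genotypes did not overlap in any combination, and the log2 difference lay between 0.86 and 1.19. Its paralog Cd59b shared 70 of 1811 words, was at means of 13.3 to 26.9, and had log2 differences of -0.16 to 0.35 (limma adjusted p between 0.874 and 0.984).

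Aim2 (ENSMUSG00000037860.15, chr1:173350879-173466040, plus strand) encodes a sensor of DNA in the cytosol that starts an inflammasome. Its values in the NAc after PBS were 101, 99.97 and 112 in wild-type and 37.2, 47.2 and 54.4 in Vdr-/- mice. In the VTA after morphine, where both genotypes were lowest, they were 38.3, 53.4 and 38.0 against 24.6, 23.8 and 26.6. The wild-type libraries stayed above the Vdr-/- libraries in all 4 combinations, by 0.75 to 1.33 on the log2 scale. It shared no more than 8 of its 3502 words with any other gene.

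Wdfy1 (ENSMUSG00000073643.11, chr1:79702262-79776143, minus strand) encodes an adaptor of Toll-like receptors 3 and 4 that binds endosomes. After PBS it was at 382, 307 and 357 in wild-type and 578, 566 and 644 in Vdr-/- mice in the NAc, and at 414, 434 and 431 against 954, 918 and 939 in the VTA. After morphine, Vdr-/- mice 2.0 and 2.1 were at 555 and 598 in the NAc and at 820.2 and 811 in the VTA. Vdr-/- mouse 2.2 was at 323 in the NAc, beside wild-type values of 322, 318 and 317, and at 374 in the VTA, beside wild-type values of 389.5, 339.7 and 396. One mouse number of 6 thus had a wild-type level of Wdfy1 in both regions, while Gm15446, Olfr286 and the other genes were at the Vdr-/- level in its libraries. With mouse 2.2 left out, the log2 difference after morphine rose from 0.57 to 0.85 in the NAc and from 0.75 to 1.12 in the VTA.

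Ide (ENSMUSG00000056999.14, chr19:37268743-37337852, minus strand) encodes the insulin-degrading enzyme, a metalloprotease that also cleaves amyloid beta. Btaf1 (ENSMUSG00000040565.7, chr19:36926079-37012752, plus strand) encodes a factor that removes the TATA-binding protein from DNA. The 2 genes lie 256 kb apart. Ide belongs to a segment of chromosome 19 that is known to vary in copy number among C57BL/6J mice. After morphine, Ide was at 824, 858 and 949 in wild-type and 407, 430.1 and 420.4 in Vdr-/- mice in the NAc. Btaf1 in the same libraries was at 1360.2, 1412 and 1388 against 1070.0, 958 and 913. Both genes were lower in every Vdr-/- library than in any wild-type library there, Ide by 1.06 ± 0.07 (SE) and Btaf1 by 0.50 ± 0.07 on the log2 scale.

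After PBS, wild-type mouse 2 was the lowest wild-type library for both genes in both regions. Ide was at 527 in its NAc library against 971 and 968 in mice 1 and 3, and at 999.8 in its VTA library against 1523 and 1360.0. Btaf1 was at 667 against 1777 and 1571 in the NAc and at 966 against 1292 and 1206 in the VTA. Its NAc library is the one with the length trend, and both genes have long transcripts (7506 and 10259 exonic bases), while its VTA library had a rho of -0.0748. The part of the length trend in the NAc values was not tested. Without that NAc library the log2 difference of Btaf1 in the NAc after PBS moved from -0.35 to -0.80 and that of Ide from -0.76 to -1.06, and Btaf1 no longer overlapped. Leaving out wild-type mouse 1 or 3 instead gave -0.09 or -0.18 for Btaf1 and -0.62 for Ide in either case, so the size of the Btaf1 difference in the NAc after PBS depended on which wild-type library was kept. Fgfbp3 (chr19:36917550-36919615), a gene next to Btaf1 for a protein that binds fibroblast growth factors, was also lower in Vdr-/- mice in all 4 combinations, with log2 differences of -0.51 to -0.76. It was not called by limma in any of them (adjusted p between 0.224 and 0.425).

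Across the 4 combinations the differences were steady for some of the 10 genes and not for others. The log2 difference varied over a range of 0.17 for Tmem181b-ps, 0.26 for Rpl3-ps1, 0.30 for Ide, 0.33 for Cd59a, 0.38 for Btaf1, 0.56 for Wdfy1, 0.58 for Aim2 and 0.74 for Gm15446. The widest ranges were 1.30 for Gm3226 and 2.17 for Olfr286. For genes with few reads these ranges depend on the 1 added before the log. The Vdr-/- NAc libraries of Olfr286 held 3 reads after PBS and 4 after morphine. With 5 added, its differences were -2.90 and -2.88 in the NAc and -2.17 and -2.46 in the VTA (PBS, then morphine). The range of Gm15446 also rests on few Vdr-/- reads, 14, 12, 11 and 7. The difference of Gm3226 was larger after PBS in both regions, and that of Olfr286 was larger in the NAc after both injections. Neither pattern was tested. These 4 values per gene share mouse numbers between regions and are not independent.

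**Figure D4:**
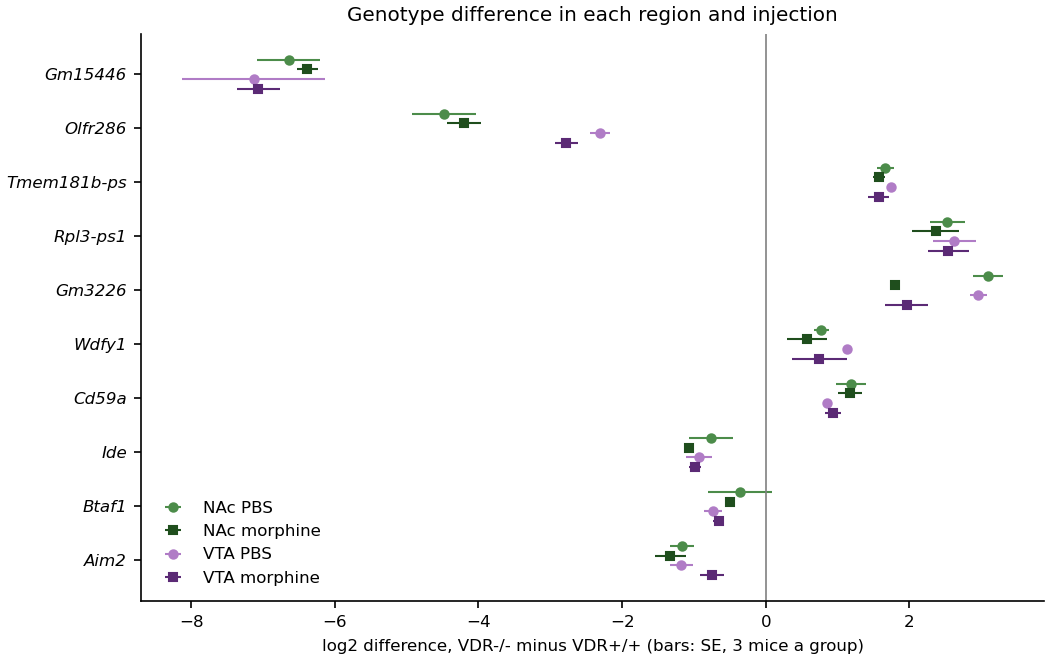
The horizontal axis is the log2 difference, VDR-/- minus VDR+/+, of log2(normalized count + 1), with bars for its SE (3 mice a group), and rows are the 10 genes. Green marks are NAc and purple marks VTA, circles PBS and squares morphine. For each gene the 4 marks lie on 1 side of 0, from -7.13 for Gm15446 in the VTA after PBS to 3.10 for Gm3226 in the NAc after PBS.

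Morphine against PBS is a contrast that did not choose the genes, so it was tested (limma, adjusted over all genes tested). In the NAc the medium spiny neuron markers moved with it, from 4356 to 5001 CPM after PBS to 2814 to 3582 CPM after morphine in wild-type mice and from 3770.0 to 4367 to 2464 to 2823 in Vdr-/- mice, and the part of this in the members' values was not tested. In wild-type mice 0 of 10 genes passed in the NAc, where 0.813% of all genes did, and 0 of 10 in the VTA, where 3.65% did. At an unadjusted p under 0.05 there were 1 and 4, and DESeq2 and edgeR called 0 in both. In Vdr-/- mice 2 of the 8 genes tested passed in the NAc, where 19.1% of all genes did. Btaf1 rose from 879 ± 13.8 (SD, n = 3) to 1085 ± 88.8, a log2 change of 0.30 ± 0.06 (limma adjusted p = 0.00712). Tmem181b-ps fell from 4950.0 ± 165 to 4369 ± 348 (-0.18 ± 0.06, limma adjusted p = 0.0498), a call that was lost under 9 alternatives, among them edgeR and leaving out any of 4 libraries. In Vdr-/- mice 0 of 9 genes tested passed in the VTA by limma, where 10% of all genes did, 5 were under an unadjusted p of 0.05, and DESeq2 called 0 and edgeR 1. Each VTA table of this contrast held 3 morphine and 2 PBS libraries. The tests over 3 against 2 or 3 mice do not show that morphine left the other genes unchanged, and Olfr286 had the widest change, from 30.9 to 14.2 in the VTA of Vdr-/- mice (-1.07 ± 0.29, limma adjusted p = 0.0570).

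NAc against VTA was the other contrast that did not choose the genes, and 6 of 10 genes passed, where 73.0% of all genes tested did. Tmem181b-ps was higher in the NAc by 1.18 ± 0.05 on the log2 scale (limma adjusted p = 9.82e-15), Aim2 by 0.65 ± 0.09 (2.07e-06) and Btaf1 by 0.64 ± 0.10 (1.35e-05). Olfr286 was higher in the VTA by 2.19 (-2.19 ± 0.14, limma adjusted p = 1.39e-11), Cd59a by 1.37 (-1.37 ± 0.07, 2.79e-13) and Gm3226 by 0.82 (-0.82 ± 0.10, 2.54e-07). Gm15446, Rpl3-ps1, Wdfy1 and Ide did not pass (limma adjusted p = 0.0774, 0.681, 0.337 and 0.0871). With mouse number as a block, Gm15446 and Ide passed as well (limma adjusted p = 0.00831 and 0.0258, log2 differences 0.49 and -0.16). The region difference was in the same direction in wild-type and Vdr-/- libraries for the 6 genes that passed. For Olfr286 it was -1.26 in wild-type and -3.12 in Vdr-/- libraries, and for Cd59a -1.51 and -1.23. The difference between the genotypes in these values was not tested.

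Other genes with the pattern of the 10 were then counted. Of 15002 genes tested in all 4 combinations, 61 (0.407%) did not overlap between the genotypes in the same direction in every one, 23 higher and 38 lower in Vdr-/- mice. They included 8 of the 10 genes, since Wdfy1 and Btaf1 each overlapped in 1 combination, and 53 others. The 10 others with the largest smallest difference were Tuba1c, Gm14150, Gm3756, Dynlt1b, Tmem267, Mid1, A730060N03Rik, Gabra2, Col2a1 and Ifit3. Gabra2, a subunit of the GABA-A receptor whose level is known to be lowered by an intronic deletion in C57BL/6J, was at 1826 ± 93.7 (SD, n = 3) in wild-type and 3537 ± 187 in Vdr-/- mice in the NAc after PBS, with log2 differences of 0.95 to 1.29. Mid1, an X-linked ubiquitin ligase gene at the edge of the pseudoautosomal region, was lower by 1.05 to 1.47, and Ifit3, an interferon-induced gene 2.34 Mb from Btaf1 that shares 869 of its 1696 words with Ifit3b, by 0.83 to 1.75. Tmem267 was lower by 1.13 to 1.49. A730060N03Rik, an antisense RNA on chromosome 15, was higher by 0.97 to 1.12, and reads of an antisense gene and its partner cannot be told apart unless the count used strand, which is not stated. As these genes were found by the same contrast, no test is given.

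Chromosome 15, which carries Vdr, held 9 of the 61 genes, 1.60% of the 561 tested on it. The member Olfr286, chosen by this contrast, was 1 of them, and 8 were not members. On the other autosomes and the X chromosome the share ran from 0 on chromosome 16 to 0.839% on chromosome 19. The 9 genes lay between 76.7 and 99.0 Mb, and 5 of them, Col2a1, Olfr286, Tuba1b, Tuba1a and Tuba1c, lay beyond Vdr within 1.12 Mb of it. Col2a1, a collagen gene of cartilage and the nearest to Vdr of the 9, was lower in Vdr-/- mice by 0.90 to 2.24 on the log2 scale. Rpl3 and Tuba1b, the genes that shared the most words with Rpl3-ps1 and Gm3226, were also among the 9. The values of Rpl3, Tuba1a, Tuba1b and Tuba1c are uncertain for the reason given above, reads that match several copies. No test was made of the distribution over chromosomes.

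**Figure D5:**
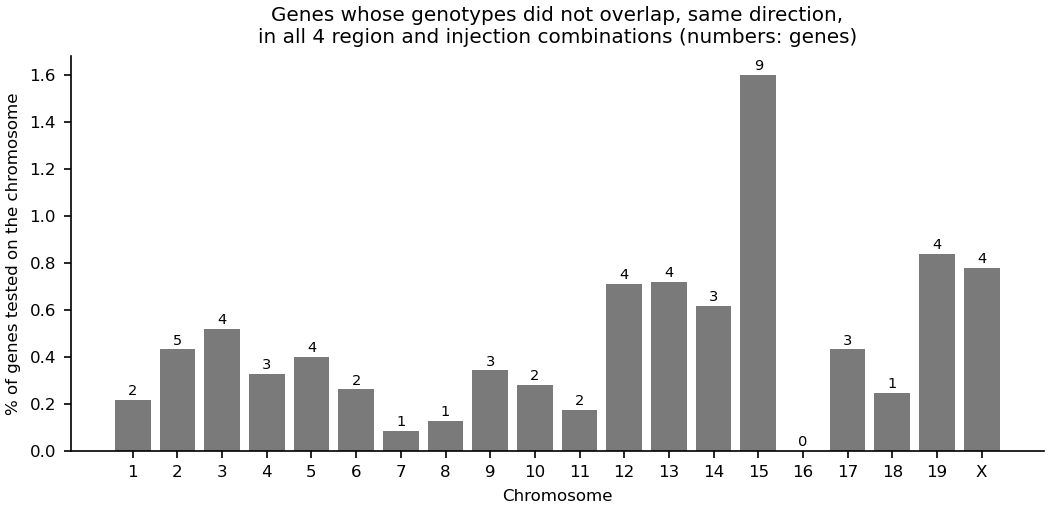
Bars give, for each chromosome, the percentage of genes tested in all 4 combinations whose genotypes did not overlap in the same direction in every one, and the number over each bar is the count of genes. Chromosome 15 has the tallest bar, with 9 genes (1.60%), 8 of them not members.

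The genes within 1 Mb of the 10 were compared with all genes, since position did not choose them. Beside Olfr286, 12 of 36 neighbours tested in the NAc after PBS did not overlap between the genotypes, 10 of 32 in the NAc after morphine, 15 of 39 in the VTA after PBS and 10 of 38 in the VTA after morphine, or 33.3%, 31.2%, 38.5% and 26.3%. Beside the other 9 genes the shares were 16.7%, 11.8%, 25.4% and 22.3%, where those of all genes tested were 16.9%, 13.5%, 20.5% and 14.5%. The neighbours of the other 9 genes were thus near the share of all genes in the NAc and above it in the VTA, and those of Olfr286 were above it in each combination, with no test made of these shares. Limma called 1, 2, 3 and 1 neighbours of Olfr286, all of them Tuba1a, Tuba1b or Tuba1c, and 0 neighbours of the other 9 genes in any combination, where 0.0690%, 0.192%, 0.390% and 0.0624% of all genes tested were called. Of the latter, 8 to 20 of 119 to 126 genes were under an unadjusted p of 0.05, edgeR called 0, and DESeq2 called 0, 0, 4 and 1. Neighbours of 1 window share a stretch of chromosome and are not independent of each other.

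Genes that work with the members and genes known to vary among inbred strains, were counted from 7 lists. In these (AIM2-like receptors, inflammasome, complement, the Toll-like receptor 3 and 4 pathway with the WDFY family, TBP and TFIID, peptide-degrading metalloproteases, and genes known to vary among inbred strains), 0 of 247 tests of VDR-/- against VDR+/+ over the 4 combinations passed by limma, where at most 0.390% of all genes tested were called in a combination, so few calls could arise at the share of all genes and the count does not show that the lists were unchanged. At an unadjusted p under 0.05 there were 22, edgeR called 0 and DESeq2 called 2, both among the strain-variable genes. The median log2 differences of the lists lay between -0.31 and 1.06, the latter for 2 AIM2-like receptor genes in the VTA after morphine, and that of all genes between 0.00 and 0.01 in size. Fgfbp3, described above beside Btaf1, belongs to the list of strain-variable genes and did not overlap in any combination. In the same list Nnt, which is disrupted in C57BL/6J, had means of 4.43 to 10.3 in both genotypes, and Crb1 was lower in Vdr-/- mice in 3 combinations with no overlap, though not called (log2 differences 0.11, -1.19, -0.69 and -2.23, limma adjusted p between 0.0725 and 0.861). The genotype values of Nnt and Crb1 were chosen for mention after they were seen.

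With morphine, genes of the lists were called in the Vdr-/- NAc (13 of 61, where 19.1% of all genes were), the wild-type VTA (4 of 62, 3.65%), the Vdr-/- VTA (9 of 62, 10%) and not in the wild-type NAc (0 of 60 by limma, 13 at an unadjusted p under 0.05). Among the complement genes, C1qa fell by 0.33 ± 0.07 (limma adjusted p = 0.00773) and Serping1, an inhibitor of C1, rose by 1.14 ± 0.16 (limma adjusted p = 9.71e-04) in the Vdr-/- NAc, and C1qa and C1qb, parts of the first complement complex, fell by 0.87 ± 0.12 and 0.80 ± 0.13 in the wild-type VTA (limma adjusted p = 0.0211 and 0.0283). The summed microglia markers, 9 genes that include C1qa, C1qb and C1qc, moved with them, from 356 to 420.5 CPM after PBS to 218 to 241 CPM after morphine in the wild-type VTA, and from 329 to 350.1 CPM to 278 to 305 CPM in the Vdr-/- NAc. The mean of this sum also fell in the wild-type NAc, from 373 to 293 CPM, and in the Vdr-/- VTA, from 346 to 251 CPM. In the Vdr-/- VTA C1qb and C1qc fell by 0.54 ± 0.11 and 0.51 ± 0.10 (limma adjusted p = 0.0294 and 0.0291). The oligodendrocyte markers were at 12610 to 13720 CPM after PBS and 6491 to 10710 CPM after morphine in the wild-type VTA. The part of these cell types in the complement values was not tested. Among partners of Wdfy1, Traf3 rose by 0.48 ± 0.06 (limma adjusted p = 7.50e-04) and Irf3 by 0.37 ± 0.10 (0.0257) in the Vdr-/- NAc. In the Vdr-/- VTA Tlr3 fell by 0.50 ± 0.10 (limma adjusted p = 0.0316) and Wdfy3 rose by 0.20 ± 0.05 (limma adjusted p = 0.0498). Of the 9 metalloproteases tested from the list beside Ide, limma called 1 lower and 1 higher after morphine in the Vdr-/- NAc. Mme, which encodes neprilysin, fell by 0.56 ± 0.07 (limma adjusted p = 4.51e-04), and Ece2 rose by 0.34 ± 0.07 (limma adjusted p = 0.00845).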

How the data were processed

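The deposited tables hold a signal per gene and library: read counts divided by the size factors of DESeq2, set by the authors within each of 8 tables of 2 groups. Per the labels and the methods, paired 101-base reads from a directional kit were demultiplexed with CASAVA 1.8, trimmed with Trimmomatic 0.36 and aligned and counted per gene with STAR 2.4.2a on GRCm38. The strand column of the counts is not stated. In every column 100% of values were whole multiples of 1 read (tolerance 0.01), so reads were recovered and DESeq2 1.42.0 and edgeR 4.0.16 were run as alternatives. Tests used limma 3.58.1 on log2(value + 1) over genes with a mean of at least 10, with two-sided p-values adjusted by Benjamini and Hochberg's method (threshold 0.05). Fold changes are on that scale and understate the change of low genes. Region was tested on 24 libraries rescaled together. The fits were also run on simulated counts that had the same dispersion setting for every gene and independent libraries. That simulation checks the code and does not measure how often the fits err on these data.

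The members and lists were chosen with earlier results of these data known. Named genes were the 10 members, the 10 other genes with the largest smallest difference among those not overlapping in all 4 combinations, Vdr, neighbours within 1 Mb called in 2 or more combinations, the gene sharing most 50-base words with each member, and list genes called in a comparison. Fgfbp3, Nnt, Tuba1a and further genes sharing words with a named gene fall outside this rule and were named after their values were seen. Columns without a sample numbered 0. Identifiers were matched to GENCODE M21 for 30204 of 30270 genes (99.8%). Nothing says that the mice came from separate litters, so p-values measure the spread between these samples. Counting intervals cover counting error only.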

Additional observations from a re-analysis of the deposited data

Results flagged for a closer look

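In 3 cases every morphine library lay on one side of every PBS library in one group and on the other side in a second group, and the difference between the groups was not tested in any of them. For Olfr286 in wild-type mice the mean log2 change with morphine was 0.37 in the NAc and -0.54 in the VTA. For Tmem181b-ps in Vdr-/- mice it was -0.18 in the NAc and 0.22 in the VTA. For Gm3226 in the NAc it was 0.88 in wild-type and -0.40 in Vdr-/- mice. Of these 6 changes, only that of Tmem181b-ps in the NAc passed the limma test. The VTA tables held 2 PBS libraries each. Groups of 3 libraries were not tested for outliers.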

How the results depend on the processing

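Signs of the genotype differences held for all 10 genes under every alternative run. Members not overlapping were 9 in the NAc after PBS (10 without wild-type mouse 2), 10 in the NAc after morphine (9 when scaled to reads on genes), 10 in the VTA after PBS and 9 in the VTA after morphine (10 without Vdr-/- mouse 2.2). The number of other genes with the pattern was 53, and 47 to 74 under the alternatives (74 without the NAc library of wild-type PBS mouse 2). Members called with morphine in the Vdr-/- NAc were 2, and 1 with edgeR, no filter, pseudocount 0.5 or scaling to reads on genes, 0 without the trend, and 1 to 2 without 1 library (1 without mouse 2.1, 2.2, 7 or 9). In the wild-type NAc they were 0 but 1 without the trend. In the wild-type VTA they were 0, but 1 with all 3 PBS mice and 0 to 3 without 1 library (3 without mouse 1.1). In the Vdr-/- VTA they were 0, but 1 with edgeR and 0 to 2 without 1 library (2 without mouse 2.0). Neighbours called were 1, 2, 3 and 1 in the 4 combinations; a window of 0.5 Mb gave 0 in each, DESeq2 gave 2, 3, 7 and 5, and a window of 2 Mb gave 2 in the VTA after morphine. The causes were not tested. With mouse number as a replicate block, 8 members differed between regions in place of 6. Same-numbered libraries of both regions correlated at -0.0624 to 0.209 over genes, and no label says that they came from 1 animal. Depth limits Gm15446 and Olfr286, whose Vdr-/- values in the NAc rest on 14 reads or fewer a group: with a pseudocount of 5 their log2 differences there after PBS were -5.79 and -2.90.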
